A study of Mus musculus with 24 samples.

Results

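The genes described here are 43 genes of DNA replication and nucleotide synthesis, taken by name from a list and not by any measured value. They were 43 of the 23234 genes in the expression tables, and every member was present in both tables and passed the filter on low values in both. The list holds 11 genes that license replication origins, 6 that switch on the replicative helicase, 7 polymerase and primase subunits, 7 genes of the sliding clamp, its loader and Okazaki fragment joining, 3 subunits of the single-strand binding complex RPA, 5 enzymes that make deoxynucleotides and 4 regulators of entry into S phase. The study compared gene expression between B cells of control mice and of mice deficient in Tet2 and Tet3, enzymes that oxidise 5-methylcytosine in DNA. All groups were primary B cells isolated fresh from the spleen of C57BL/6 mice. Of 24 samples in 8 groups, 12 in 4 groups of 3 were used: control and Tet2/Tet3-deficient cells without surface CD93 (CD93-negative) and with it (CD93-positive). CD93 marks immature B cells among others. The deficient libraries, named Tet DKO in the CD93-negative and Tet KO in the CD93-positive titles, are called DKO here. How the deletion was made, which cells carried it and the age of the mice are not given in the sources used here. No label says that the replicates of a group came from separate animals, so the tests below measure spread among libraries that may be technical. The CD93-positive controls, of both sexes by their RNA, cannot all come from the same animal, and for the other groups this is unknown.

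A cell that prepares to divide loads the ring-shaped MCM helicase onto origins in G1, with the help of the origin recognition complex, Cdc6 and Cdt1, while geminin (Gmnn) restrains Cdt1 afterwards. In S phase Cdc45 and the GINS complex join the ring, polymerases copy both strands on the clamp PCNA, and ribonucleotide reductase supplies deoxynucleotides. Most mature splenic B cells rest outside the cycle and hold little RNA of these genes, many of which are targets of E2F transcription factors.

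Levels were the authors' FPKM values, fragments scaled to transcript length and to the fragments mapped in the library, so that genes can be compared per length. The FPKM sum was 342368 to 463987 in CD93-negative libraries. It was 523898 to 597968 in 5 CD93-positive libraries and 309359 in DKO replicate 3, which also held the lowest DKO value for 42 of the 43 members. Each comparison is therefore also given after every library was rescaled to the same upper quartile over the tested genes. The factors were 0.855 to 0.996 in 5 CD93-positive libraries and 1.67 in DKO replicate 3. In CD93-negative libraries they were 1.26, 0.973 and 1.03 for the controls and 0.904 to 0.942 for DKO. CD93-negative control replicate 1, with the factor of 1.26, held the lowest control value for 38 of the 43 members. The rescaling moved the median log2 change of all tested genes from 0.11 to -0.08 in CD93-negative and from -0.22 to -0.01 in CD93-positive cells. The 7 B cell genes were expressed in every library, and Cd93 ranged over 3.88 to 4.65 FPKM (control) and 3.32 to 3.85 FPKM (DKO) in CD93-negative and over 50.9 to 59.9 and 28.0 to 50.5 FPKM in CD93-positive libraries. Tet2 ranged over 6.36 to 8.79 (control) versus 8.15 to 9.94 FPKM (DKO) in CD93-negative and 3.10 to 3.47 versus 1.80 to 3.55 FPKM in CD93-positive libraries, with overlap in both. Tet3 ranged over 14.8 to 20.1 versus 14.9 to 15.7 FPKM in CD93-negative libraries, with overlap, and over 12.1 to 14.1 versus 3.84 to 9.92 FPKM in CD93-positive libraries, without. With the authors' scaling no change of Tet2 (limma, adjusted p = 0.336 and 0.731, in CD93-negative and CD93-positive cells) or Tet3 (0.360 and 0.222) passed. After rescaling Tet3 fell by 0.41 and 0.66 on the log2 scale (limma, adjusted p = 0.00180 and 0.0150, and 0.00180 to 0.646 and 0.0150 to 0.952 over the alternatives). A level over a whole gene does not check the deletion of a piece of it. By Xist and the Y-linked gene Ddx3y, all CD93-negative libraries were male, CD93-positive control replicates 1 and 2 were male, and the other 4 CD93-positive libraries were female.

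In CD93-negative cells most replication genes were higher in the DKO libraries. Of the 43 members, 35 rose and none fell (limma on log2(FPKM + 1), adjusted p under 0.05), where 18.7% of all 10960 tested genes rose and 2.79% fell. The median member change was 0.87 on the log2 scale, against 0.11 for all tested genes. For 39 of the 43 members all 3 DKO libraries lay above all 3 control libraries, which held for 31.5% of tested genes, while DKO libraries lay below for no member and for 7.43% of tested genes. Cdc6, Orc1 and Ccne2 were under 1 FPKM in every control library and entered the test through the DKO libraries. Without such genes 32 of 40 members and 17.5% of 10790 genes rose. After rescaling the same 35 members rose, against 17.1% of tested genes, and 1 member, Pold1, fell, against 23.8%. Rescaled DKO values lay above the controls for 37 members (21.4% of tested genes) and below them for Pold1 alone (33.3%). Log2 changes are DKO minus control throughout and understate the change of genes near 1 FPKM. In a bulk library, a larger share of dividing cells and more of these RNAs in each cell cannot be told apart.

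**Figure D1:**
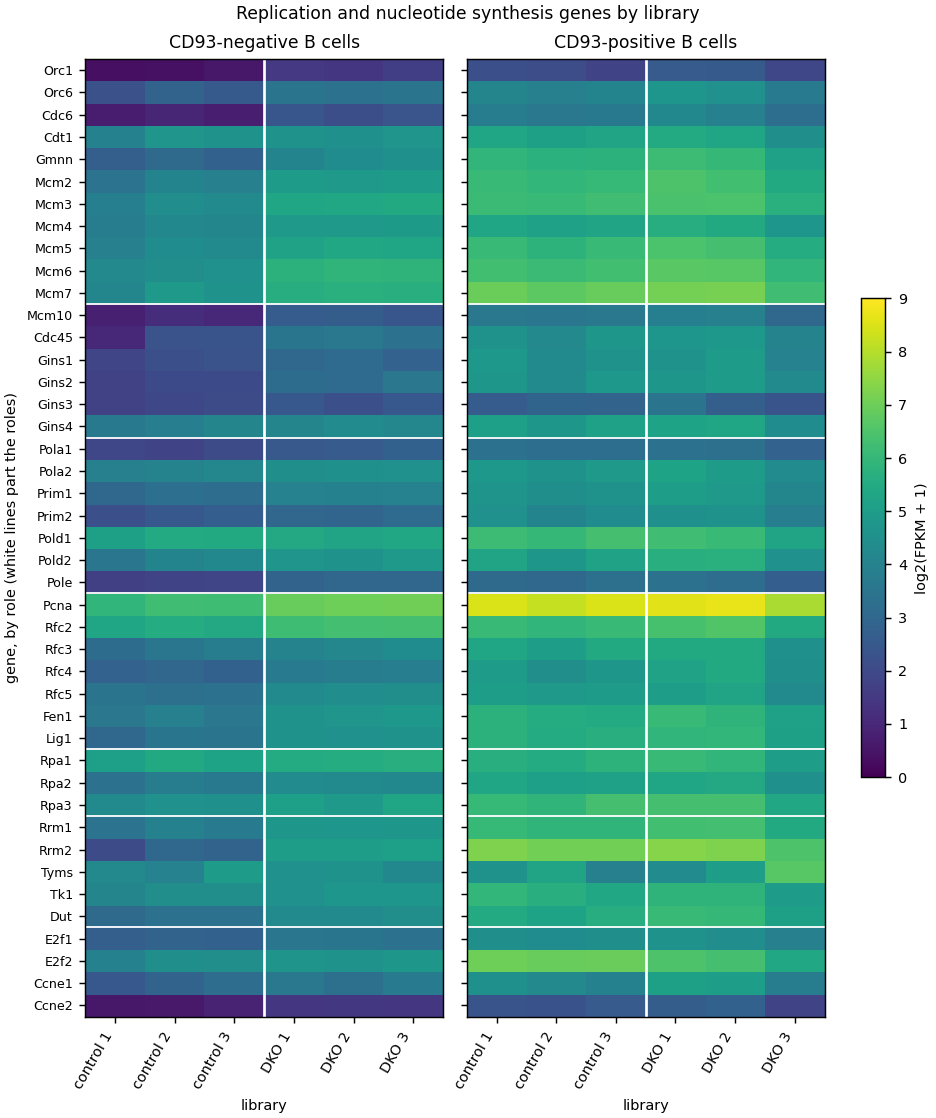
Level of each of the 43 genes, as log2(FPKM + 1) on the colour scale (dark is low), in each control and DKO library of CD93-negative (left) and CD93-positive (right) B cells, with genes in rows by role. In CD93-negative cells 39 genes are lower in all 3 control than in all 3 DKO libraries, and in CD93-positive cells the DKO replicate 3 column is the darkest DKO column for 42 genes.

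The members were also searched for shared promoter letters, since transcription of many of them is known to depend on E2F factors. RefSeq promoters (GRCm38.p6, 250 bases before to 50 bases after a start) were found for 34 of the 43 members, with 40 promoters in all. The letters TTCGCGC, the letters TTGGCGC, the letters TTCCCGC and the letters TTGCCGC, on either strand, were taken for an E2F site. Any of these occurred in 22 of the 40 member promoters (55.0%), belonging to 20 genes, in 9.57% of all 32851 promoters and in 17.1% of the 9816 promoters of genes tested in CD93-negative cells. The letters CCAAT, on either strand, occurred in 57.5% of member promoters and 38.7% of tested ones. The letters TTTGAA of the cell cycle homology region, found in genes expressed late in the cycle, occurred in 6 of the 40 member promoters and 12.4% of tested ones. Of the members with a promoter, 16 of 27 that rose in CD93-negative cells and 4 of 7 that did not held the E2F letters. A match is a description of letters, and no binding was measured.

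The 120 bases before the start of 5 members follow, 5′ to 3′ on the gene's strand, with the E2F letters in capitals. They are shown because they differ in where and how often these letters stand, in 4 genes that rose in CD93-negative cells (Mcm6, Rrm1, Prim1 and Rpa2) and in 1 that did not pass the test (Gins3).
Mcm6, chr1:128359706-128359825, minus strand: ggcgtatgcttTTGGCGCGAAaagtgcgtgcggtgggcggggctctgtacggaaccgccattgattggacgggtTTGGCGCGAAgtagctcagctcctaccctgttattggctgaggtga
Rrm1, chr7:102441575-102441694, plus strand: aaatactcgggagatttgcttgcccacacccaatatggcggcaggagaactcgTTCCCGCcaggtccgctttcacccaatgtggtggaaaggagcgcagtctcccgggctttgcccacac
Prim1, chr10:128015095-128015214, plus strand: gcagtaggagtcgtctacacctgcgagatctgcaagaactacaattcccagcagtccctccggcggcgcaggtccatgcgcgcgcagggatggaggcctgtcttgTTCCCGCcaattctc
Rpa2, chr4:132768240-132768359, plus strand: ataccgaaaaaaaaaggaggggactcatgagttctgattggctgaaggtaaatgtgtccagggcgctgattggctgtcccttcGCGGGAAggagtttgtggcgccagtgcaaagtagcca
Gins3, chr8:95633439-95633558, plus strand: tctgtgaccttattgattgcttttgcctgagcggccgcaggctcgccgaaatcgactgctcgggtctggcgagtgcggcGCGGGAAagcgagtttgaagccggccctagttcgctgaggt
The Mcm6 promoter held the run TTGGCGCGAA at positions -109 and -46 from the start, in which 2 of the searched words overlap on opposite strands. Rrm1 held its match at -67, Gins3 at -41, Rpa2 at -37 and Prim1 at -15.

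All 6 subunits of the MCM ring, the motor that unwinds DNA at the fork, rose in CD93-negative DKO cells. Mcm6 read 17.7, 21.0 and 22.7 FPKM in the controls versus 53.8, 58.2 and 56.9 in DKO, a log2 change of 1.42 ± 0.13 (SE; limma, adjusted p = 1.24e-05). Mcm3 read 13.7, 20.3 and 18.8 versus 38.8, 41.0 and 43.7 FPKM (log2 change 1.198). Mcm2 read 9.70, 15.5 and 14.0 versus 30.4, 27.8 and 30.3 FPKM (log2 change 1.14). For these 3 subunits each DKO library was above each control library, and control replicate 1 was the lowest. Mcm7 read 16.5, 28.2 and 23.1 versus 47.3, 50.8 and 49.5 FPKM (log2 change 1.12). Mcm5 read 14.2, 20.004 and 18.6 versus 35.3, 39.8 and 38.6 FPKM (log2 change 1.07). Mcm4, with the smallest change of the ring, read 12.9, 17.2 and 16.4 versus 27.6, 27.6 and 29.2 FPKM (log2 change 0.83 ± 0.14 SE; limma, adjusted p = 0.00105). The groups did not overlap for any of the 6 subunits.

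Summed over the ring, the level was 84.7, 122 and 114 FPKM in the controls versus 233, 245 and 248 in DKO. The subunits did not keep the same shares of that sum. Mcm6 made up 20.9%, 17.2% and 19.9% of it in the controls versus 23.1%, 23.7% and 22.9% in DKO. Mcm4 made up 15.2%, 14.1% and 14.4% versus 11.8%, 11.3% and 11.8%. Shares within a library do not depend on its scaling, and for neither subunit did the groups overlap. They were chosen after the values had been seen and carry no test. The lowest subunit was Mcm2 in all 3 control libraries and Mcm4 in all 3 DKO libraries. In CD93-positive cells Mcm7 was the highest and Mcm4 the lowest subunit in all 6 libraries.

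**Figure D2:**
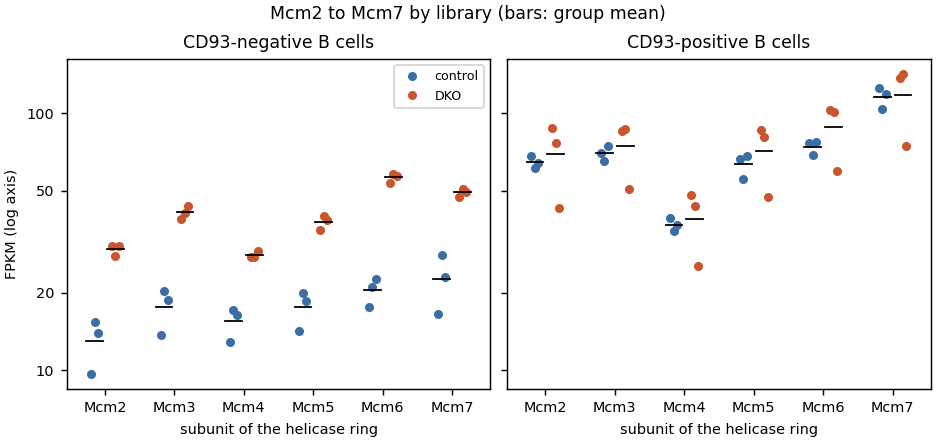
FPKM (log axis) of the 6 ring subunits in each library, with control libraries in blue, DKO libraries in orange and a bar at each group mean, for CD93-negative (left) and CD93-positive (right) B cells. The CD93-negative groups are apart for every subunit, whereas in CD93-positive cells DKO replicates 1 and 2 lie above the controls and DKO replicate 3 below them.

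Of the other licensing genes, Cdc6, which loads the ring, had the largest increase in CD93-negative cells. Cdc6 read 0.641, 0.961 and 0.678 FPKM in the controls versus 4.37, 3.51 and 4.15 in DKO (log2 change 1.51 ± 0.15 SE; limma, adjusted p = 2.41e-05). Orc1, the largest subunit of the origin recognition complex, ranged over 0.282 to 0.492 versus 1.71 to 2.21 FPKM, and Orc6, another subunit, over 3.69 to 6.35 versus 9.30 to 9.98 FPKM. The groups were apart for all 3 genes. Gmnn, the inhibitor of Cdt1, rose from 5.63, 7.68 and 6.02 to 15.8, 19.9 and 21.9 FPKM (log2 change 1.44 ± 0.16 SE; limma, adjusted p = 4.71e-05). Cdt1 itself read 14.6, 24.7 and 23.3 versus 23.4, 21.9 and 24.9 FPKM (log2 change 0.19 ± 0.18 SE; limma, adjusted p = 0.507). Its groups overlapped, and it was the 1 licensing gene of 11 that did not pass the test.

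Among the 6 genes that activate the helicase, 4 rose in CD93-negative cells. Cdc45, a part of the working helicase, changed most, from 1.02, 3.90 and 4.09 to 10.2, 11.2 and 9.62 FPKM (log2 change 1.62 ± 0.28 SE; limma, adjusted p = 0.00148). Control replicate 1 was well below the other controls for this gene. Mcm10, which takes part in switching on the loaded helicase, ranged over 0.723 to 1.26 versus 4.25 to 5.33 FPKM (log2 change 1.56). The GINS complex is built from equal copies of its 4 subunits. Gins2 ranged over 2.37 to 3.10 versus 7.84 to 10.8 FPKM (log2 change 1.36), and Gins1 over 2.69 to 3.89 versus 6.06 to 7.84 FPKM (log2 change 0.89). Gins3 read 2.42, 2.89 and 3.28 versus 4.51, 3.57 and 4.62 FPKM, without overlap but short of the threshold (log2 change 0.44 ± 0.15 SE; limma, adjusted p = 0.0589). Gins4, the most abundant of the 4, read 11.4, 13.6 and 16.2 versus 16.1, 19.1 and 17.0 FPKM, with overlap (log2 change 0.33 ± 0.15 SE; limma, adjusted p = 0.139).

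Of the 7 polymerase and primase genes, 6 rose in CD93-negative cells. Pole, the catalytic subunit of the leading-strand polymerase epsilon, rose from 2.23, 2.58 and 2.67 to 6.27, 6.81 and 6.81 FPKM (log2 change 1.13 ± 0.13 SE; limma, adjusted p = 9.00e-05). The primase subunit Prim1 ranged over 7.15 to 8.72 versus 14.6 to 14.9 FPKM, and Pold2, an accessory subunit of polymerase delta, over 10.6 to 17.4 versus 23.4 to 27.8 FPKM. The other genes that rose, Pola1 and Pola2 of polymerase alpha and the primase subunit Prim2, had log2 changes of 0.68, 0.49 and 0.56. Pola2, the smallest of these changes, was a rise from 14.0, 15.4 and 16.9 to 21.4, 22.0 and 22.8 FPKM. Pold1, the catalytic subunit of the lagging-strand polymerase delta and the most abundant of the 7 genes, read 33.5, 44.6 and 42.9 FPKM in the controls versus 42.2, 37.4 and 41.2 in DKO, with overlap (log2 change 0.01 ± 0.14 SE; limma, adjusted p = 0.982). After rescaling it read 42.3, 43.4 and 44.1 versus 39.8, 34.8 and 37.2 and fell, without overlap (log2 change -0.21 ± 0.06 SE; limma, adjusted p = 0.0241, and 0.0233 to 0.987 over its alternatives). Under either scaling Pole rose and Pold1 did not.

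All 7 genes of the clamp, its loader and Okazaki fragment joining rose in CD93-negative cells. Lig1, the ligase that seals Okazaki fragments, changed most, from 6.98, 10.3 and 9.95 to 23.3, 22.6 and 23.6 FPKM (log2 change 1.28 ± 0.15 SE; limma, adjusted p = 8.46e-05). Fen1, the nuclease that trims their flaps, ranged over 10.9 to 14.0 versus 23.9 to 27.1 FPKM (log2 change 1.03). Pcna, the clamp, had the highest mean level of all 43 members in both groups, with 59.98, 75.1 and 72.0 versus 120.1, 129 and 131 FPKM (log2 change 0.87). Each DKO library was again above each control library. The loader subunits Rfc5, Rfc4, Rfc2 and Rfc3 had log2 changes of 0.99, 0.92, 0.86 and 0.69. Rfc3, the smallest, read 8.03, 10.7 and 12.96 versus 15.3, 17.1 and 19.8 FPKM, without overlap (limma, adjusted p = 0.0122).

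Of the 3 RPA subunits, which coat single-stranded DNA as a complex of equal copies, Rpa2 and Rpa3 rose in CD93-negative cells. Rpa2 read 9.16, 12.9 and 11.4 versus 19.1, 18.5 and 17.6 FPKM (log2 change 0.69 ± 0.14 SE; limma, adjusted p = 0.00430), and Rpa3 had a log2 change of 0.62. Rpa1, the largest subunit, read 33.1, 43.1 and 36.0 versus 45.8, 47.1 and 48.4 FPKM (log2 change 0.33 ± 0.13 SE; limma, adjusted p = 0.0981). Its groups did not overlap, but the change did not pass.

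The nucleotide enzymes held the member with the largest change of all 43. Rrm2, the small subunit of ribonucleotide reductase that is made in S phase, read 3.31, 7.29 and 6.29 FPKM in the controls versus 31.8, 31.8 and 33.0 in DKO. The DKO mean was 5.71 times that of the controls (log2 change 2.38 ± 0.20 SE; limma, adjusted p = 7.16e-06), and the change ranked 50 from the top among the 10960 tested genes. Rrm1, the large subunit, ranged over 9.87 to 14.4 versus 25.2 to 26.4 FPKM (log2 change 1.06), and Dut, the dUTPase that keeps uracil out of DNA, over 7.60 to 9.60 versus 18.4 to 21.0 FPKM (log2 change 1.04). The groups were apart for all 3 genes. Tk1, the thymidine kinase of S phase, read 16.0, 21.0 and 20.6 versus 22.5, 25.8 and 25.5 FPKM, without overlap and without a call (log2 change 0.35 ± 0.14 SE; limma, adjusted p = 0.1003). Tyms, thymidylate synthase, was scattered within both groups, with 17.7, 15.03 and 30.4 versus 22.5, 23.8 and 17.2 FPKM (log2 change 0.06 ± 0.22 SE; limma, adjusted p = 0.896). The pseudogene Tyms-ps read 5.73, 5.58 and 10.9 versus 8.04, 7.73 and 5.51 FPKM, high and low in nearly the same libraries. Reads may have been split between gene and pseudogene, so the Tyms level is uncertain.

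Of the 4 regulators of S phase entry, 3 rose in CD93-negative cells. The cyclin E genes encode partners of Cdk2 at this step. Ccne2 rose from 0.494, 0.529 and 0.799 to 1.68, 1.74 and 1.66 FPKM (log2 change 0.75 ± 0.15 SE; limma, adjusted p = 0.00430), and Ccne1 had a log2 change of 0.70. Of the activator E2F genes, E2f1 ranged over 5.59 to 6.30 versus 9.59 to 10.6 FPKM and rose (log2 change 0.68 ± 0.13 SE; limma, adjusted p = 0.00230). E2f2 read 14.5, 21.3 and 20.6 versus 24.5, 23.9 and 25.9 FPKM, without overlap and without a call (log2 change 0.40 ± 0.15 SE; limma, adjusted p = 0.0869).

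**Figure D3:**
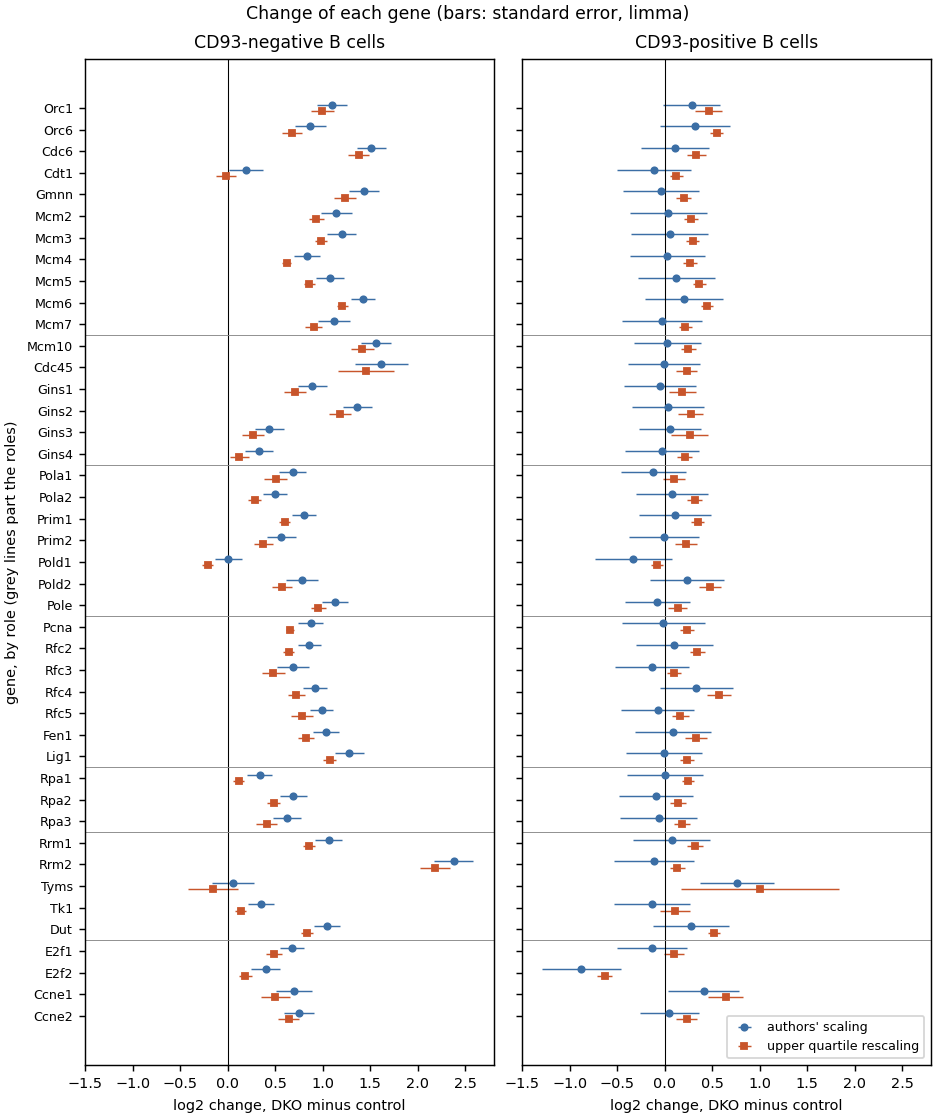
Log2 change (DKO minus control, limma) of each of the 43 genes with its standard error as a bar, with the authors' scaling (blue circles) and after upper quartile rescaling (orange squares), in CD93-negative (left) and CD93-positive (right) B cells, in rows by role. In CD93-negative cells Rrm2 lies farthest right and Pold1, Tyms and Cdt1 lie near 0, and in CD93-positive cells E2f2 lies farthest left under either scaling.

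Ratios of 2 members within a library do not depend on how the library was scaled, and 4 of the 10 computed are given, chosen after the values had been seen, as a description with no test. In CD93-negative cells the Gmnn to Cdt1 ratio was 0.387, 0.310 and 0.259 in the controls versus 0.674, 0.909 and 0.880 in DKO. The Rrm2 to Rrm1 ratio was 0.335, 0.507 and 0.529 versus 1.203, 1.26 and 1.26. The Pole to Pold1 ratio was 0.0666, 0.0578 and 0.0622 versus 0.149, 0.182 and 0.166. None of these 3 pairs of groups overlapped, with the DKO libraries higher in each. The E2f1 to E2f2 ratio, 0.289 to 0.385 versus 0.370 to 0.431, did overlap. In CD93-positive cells the Gmnn to Cdt1 ratio was 1.45 to 1.57 versus 1.61 to 1.63, and the Pole to Pold1 ratio 0.106 to 0.116 versus 0.125 to 0.146, both again higher in DKO libraries. The Rrm2 to Rrm1 ratio there was lower in DKO libraries, at 1.97 to 2.14, than in the controls, at 2.30 to 2.35. The E2f1 to E2f2 ratio was 0.163 to 0.178 versus 0.250 to 0.349, with the DKO libraries higher.

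**Figure D4:**
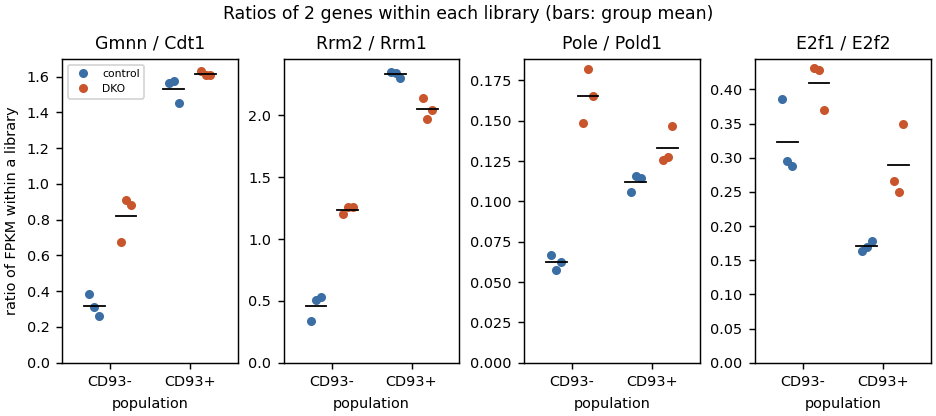
Ratio of the FPKM of 2 genes within each library (vertical axis, from 0) for Gmnn to Cdt1, Rrm2 to Rrm1, Pole to Pold1 and E2f1 to E2f2, in control (blue) and DKO (orange) libraries of CD93-negative (CD93-) and CD93-positive (CD93+) cells, with a bar at each group mean. In CD93-negative cells the first 3 ratios are higher in every DKO than in every control library, and in CD93-positive cells the Rrm2 to Rrm1 ratio is lower and the other 3 are higher.

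In CD93-positive cells no member rose and none fell with the authors' scaling (limma), where 1.67% of 11250 tested genes rose and 1.54% fell. At an unadjusted p under 0.05 there were 2 members, Tyms and E2f2. The median member change was 0.03, against -0.22 for all tested genes. No member had all DKO libraries above all control libraries (2.94% of tested genes), and E2f2 alone had them all below (19.0% of tested genes). Mcm6 read 76.4, 69.1 and 77.1 FPKM in the controls versus 103, 101 and 59.5 in DKO (log2 change 0.20 ± 0.41 SE; limma, adjusted p = 0.881). DKO replicates 1 and 2 lay above its controls and DKO replicate 3 below them. Without that library 2 of the 43 members rose and none fell, where 487 of 11107 tested genes rose and 136 fell. For Orc6 in CD93-positive cells the log2 change was then 0.61 (limma, adjusted p = 0.0365, and 0.00411 to 1.0 over its alternatives). For Ccne1 in CD93-positive cells it was 0.83 (limma, adjusted p = 0.0297, and 0.0250 to 1.0 over its alternatives).

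After rescaling, 14 members rose in CD93-positive cells and 1 fell, where 11.4% of tested genes rose and 9.34% fell. DKO values lay above the controls for 26 members (20.9% of tested genes) and below them for 1 (22.0%). The median member change was 0.25, against -0.01 for all tested genes. Those that rose were Orc6 and Mcm2 to Mcm6 among the licensing genes, Pola2, Prim1 and Pold2 among the polymerase genes, Rfc2 and Rfc4 of the clamp loader, Rpa1, Rrm1 and Dut. Rescaled Orc6 read 14.7, 14.1 and 13.4 versus 21.8, 20.3 and 20.9 (log2 change 0.55 ± 0.07 SE; limma, adjusted p = 0.00475). Rescaled Dut read 40.1, 36.4 and 41.2 versus 57.0, 56.0 and 56.8 (log2 change 0.52 ± 0.07 SE; limma, adjusted p = 0.00475, and 0.00475 to 1.0 over its alternatives). For both genes the 3 rescaled DKO values lay close together and above the controls. Rescaled Mcm6 read 69.3, 68.8 and 65.9 versus 89.3, 91.0 and 99.3, again without overlap (log2 change 0.45 ± 0.06 SE; limma, adjusted p = 0.00689, and 0.00689 to 1.0 over its alternatives). Rescaled Rrm2 read 139, 134 and 116 versus 140.3, 138 and 148 (log2 change 0.13 ± 0.08 SE; limma, adjusted p = 0.292, and 0.104 to 1.0 over its alternatives). Its groups overlapped under either scaling.

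E2f2 was the 1 member that fell in CD93-positive cells after rescaling. Its FPKM was 129, 118 and 121 in the controls versus 88.1, 81.2 and 40.8 in DKO, below every control in each (log2 change -0.88 ± 0.41 SE; limma, adjusted p = 0.355). Rescaled, it read 117, 118 and 103 versus 76.1, 72.9 and 68.1 (log2 change -0.63 ± 0.08 SE; limma, adjusted p = 0.00404, and 0.00399 to 1.0 over its alternatives). E2f1, its close relative, read 21.1, 20.02 and 21.5 versus 23.5, 20.3 and 14.2 FPKM, with overlap. Ccne1 read 21.7, 17.9 and 14.7 versus 33.6, 31.6 and 13.03 FPKM and Ccne2 ranged over 3.76 to 4.93 versus 2.63 to 5.94 FPKM, both with overlap. Tyms was again scattered, with 23.0, 37.3 and 14.1 versus 19.3, 31.9 and 99.7 FPKM, and Tyms-ps read 7.57, 12.03 and 4.34 versus 5.15, 11.9 and 32.4 FPKM.

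**Figure D5:**
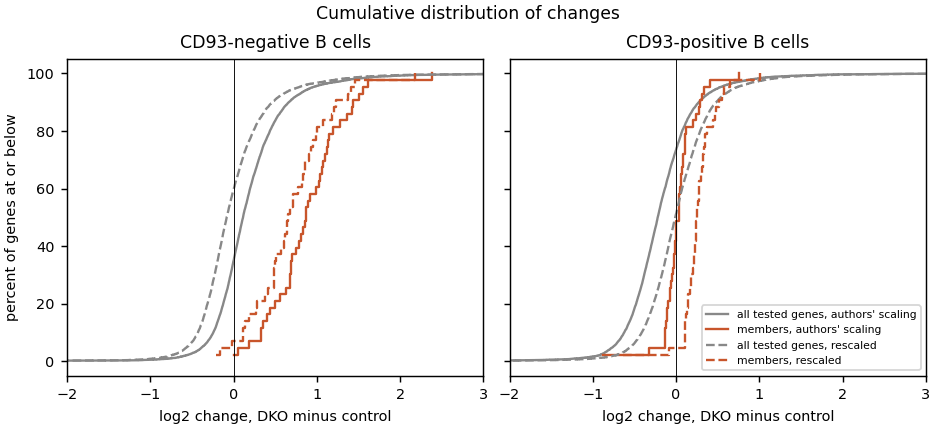
Cumulative percent of genes at or below each log2 change (DKO minus control) for all tested genes (grey) and the 43 members (orange), with the authors' scaling (solid) and after rescaling (dashed), in CD93-negative (left) and CD93-positive (right) B cells. The members' median lies to the right of that of all tested genes by 0.75 and 0.73 (authors' scaling and rescaled) in CD93-negative and by 0.25 and 0.26 in CD93-positive cells.

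RNA of other cells was present in the CD93-positive libraries, at levels that varied among them. The 10 red cell precursor genes, none of them at 0, summed to 40635, 34620 and 8698 FPKM in the controls versus 9299, 9373 and 2314 in DKO, with overlap, and 5 of them fell with the authors' scaling and none after rescaling. Gata1, a defining factor of that lineage, read 18.5, 14.6 and 6.02 versus 24.6, 17.1 and 8.70 FPKM. The 5 neutrophil genes found summed to 1780, 1266 and 1539 versus 1183, 879 and 361 FPKM, and the 10 mitosis genes to 579, 509.6 and 563 versus 610.2, 580.3 and 338 FPKM. The 7 plasma cell genes found summed to 175 to 236 versus 859.9 to 1476 FPKM, of which Igj, the joining chain of antibodies, made up 27.0 to 40.6 versus 688 to 1148 and Xbp1, a factor of secreting cells, 33.3 to 51.4 versus 106 to 205. Of 6 plasma cell genes tested, Prdm1, Xbp1 and Igj rose under either scaling and Irf4 fell after rescaling, while the DKO means of Irf4, Slamf7 and Sdc1 were 0.723, 0.739 and 0.934 times those of the controls. Of 7 B cell genes 1 fell with the authors' scaling and 4 after rescaling. Of all tested genes 1.67% rose and 1.54% fell with the authors' scaling, and 11.4% rose and 9.34% fell after rescaling. Dividing red cell precursors use the replication genes too, and the part of these cells in the members' levels was not tested. Control replicate 3 held about as little red cell RNA as DKO replicates 1 and 2, and its E2f2 level was above theirs, but it is 1 library. The part of red cell RNA in the E2f2 change was not tested. Without control replicates 1 and 2 the rescaled log2 change of E2f2 in CD93-positive cells was -0.52. That fit leaves 1 control, which is assumed to vary like the DKO libraries, and that no member passed there says nothing on sex or red cell RNA. Control replicates 1 and 2 were the male libraries as well as those with most red cell RNA, so sex and red cell RNA cannot be told apart. With sex as a covariate and rescaling 6 members rose and E2f2 fell (log2 change -0.51; limma, adjusted p = 0.0391, within the 0.00399 to 1.0 over its alternatives). In that fit 398 of 11250 tested genes rose and 172 fell. A share was also taken of all FPKM less that of the 10 red cell genes and of the further globin genes Hba-a2 and Hbb-b2. The members without Tyms made up 0.411%, 0.400% and 0.387% of it in the controls versus 0.426%, 0.433% and 0.439% in DKO, without overlap. Any replication RNA of red cell precursors stayed in the members' part of this share. With Tyms, the members made up 0.3701%, 0.3647% and 0.3788% versus 0.4188%, 0.4264% and 0.4665% of all FPKM.

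In CD93-negative cells some marker lists moved beside the members, where 18.7% of all tested genes rose and 2.79% fell. The 10 mitosis genes, which mark dividing cells, all rose, and summed to 24.3, 39.4 and 35.5 FPKM in the controls versus 154, 164 and 176 in DKO. Mki67, a common mark of cycling cells, read 4.42, 7.30 and 7.07 versus 34.6, 31.7 and 34.9 FPKM (log2 change 2.28 ± 0.17 SE; limma, adjusted p = 1.77e-06). The 7 plasma cell genes found summed to 80.3, 110.5 and 104 versus 339.8, 359 and 379 FPKM, and 4 of 6 tested rose. The 10 red cell genes summed to 22.8 to 64.7 versus 91.8 to 175 FPKM, and 4 of 6 tested rose (3 after rescaling). Genes of this list under 1 FPKM numbered 6, 6 and 8 in the controls and 4, 5 and 2 in DKO. Some may thus have entered the test through the DKO libraries. Gata1, below the filter, was at 0 in all controls and 0.192 to 0.240 FPKM in DKO. The 9 T cell genes found summed to 30.3 to 50.5 versus 58.1 to 63.9 FPKM, and 6 rose. The 6 NK cell genes summed to 28.5 to 58.1 versus 44.8 to 51.2 FPKM, with overlap, and 1 rose. Of the macrophage genes 2 of 3 tested rose, and of the neutrophil genes 0 of 2. The 7 B cell genes summed to 2717 to 3364 versus 2964 to 3115 FPKM, with overlap, and 1 of them fell. After rescaling they summed to 3428, 3272 and 3268 versus 2793, 2803 and 2816, without overlap, and 4 fell, where 23.8% of tested genes did. The part of these other cells in the members' rise was not tested. The members made up 0.142%, 0.162% and 0.171% of all FPKM in the controls versus 0.239%, 0.231% and 0.234% in DKO, without overlap.

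Set beside each other, the CD93-positive control libraries read higher for most of these genes than the CD93-negative libraries. The tables were scaled separately and the FPKM sums were larger in the CD93-positive controls, so this is a description without a test. For 42 of the 43 members every CD93-negative control value lay below every CD93-positive control value, the exception being Tyms, and this held for 43.8% of the 10446 genes tested in both tables. The ratio of the control means, CD93-positive over CD93-negative, ran from 1.18 for Tyms through a median of 3.62 to 25.1 for Rrm2, against a median of 1.19 over the genes tested in both. For 39 members all CD93-negative DKO values still lay below all CD93-positive control values, the exceptions being Pold2, Rfc2, Rpa1 and Tyms, as did 37.1% of the genes tested in both tables. The ratio of CD93-positive control to CD93-negative DKO means had a median of 1.92 and ran from 0.829 for Rfc2 to 4.96 for E2f2, against a median of 1.07 over the genes tested in both. RNA of other cells differed between the tables as well. Globin genes made up 2.61% to 10.6% of all FPKM in the CD93-positive controls, against 0.0111% to 0.0148% and 0.0385% to 0.0427% in the CD93-negative control and DKO libraries. The neutrophil genes summed to 1266 to 1780 FPKM, against 0.436 to 7.26 and 2.64 to 10.96 FPKM. The part of such cells in the gap was not tested.

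Of the other genes of the same pathways, from lists named in addition to the members, part rose in CD93-negative DKO cells, where 18.7% of all tested genes rose and 2.79% fell (17.1% and 23.8% after rescaling). Of 38 tested replication factors 19 rose and none fell, with a median log2 change of 0.46 (17 rose and 1, Pold4, fell after rescaling). The largest increases were those of 2810417H13Rik, which encodes the PCNA-associated factor (log2 change 2.06), Clspn, the fork checkpoint mediator claspin (1.64), Chaf1a, of the chromatin assembly factor at the fork (1.45), and Asf1b, a histone chaperone (1.14). 2810417H13Rik read 6.30, 8.14 and 6.50 FPKM in the controls versus 29.5, 33.7 and 33.6 in DKO, without overlap. Of 36 other nucleotide synthesis genes 21 rose and none fell, with a median of 0.47 (19 and 4 after rescaling). Log2 changes were 1.28 for Uck2, a uridine-cytidine kinase, 1.05 for Nme2, a nucleoside diphosphate kinase, and 0.88 for Mthfd2, of the mitochondrial folate cycle. Of 28 tested G1 and S phase regulators beyond the members 13 rose and none fell, with a median of 0.42 (13 and 5 after rescaling). Log2 changes were 1.91 for Ccna2, cyclin A, 1.54 for Dtl, of the ubiquitin ligase that removes Cdt1 in S phase, 1.47 for E2f8, an E2F repressor, and 1.18 for Cdkn2c, an inhibitor of Cdk4 and Cdk6.

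In CD93-positive cells none of the 38 replication factors, none of the 36 nucleotide genes and 1 of 29 regulators, Tfdp2, changed with the authors' scaling (limma). Tfdp2, which encodes an E2F partner, fell from 27.9, 27.6 and 13.3 to 10.7, 10.2 and 5.24 FPKM (log2 change -1.28 ± 0.36 SE; limma, adjusted p = 0.0151). It did not pass after rescaling (log2 change -1.06; limma, adjusted p = 0.0520, and 0.0141 to 0.948 over its alternatives). Control replicate 3 was closer to the DKO libraries than the other controls were. Those other controls were the male libraries and held most red cell RNA, and sex and red cell RNA cannot be told apart. After rescaling 6 replication factors rose and none fell, 19 nucleotide genes rose and 3 fell, and 4 regulators rose and 3 fell. The shares that rose were 15.8%, 52.8% and 13.8%, where 11.4% of all tested genes rose and 9.34% fell, so those of the replication factors and regulators lay near that of all genes. Uck2 then had a log2 change of 0.71 (limma, adjusted p = 0.00434, and 0.00434 to 1.0 over its alternatives). Nme2 had one of 0.85 (limma, adjusted p = 0.00115, and 0.000593 to 1.0 over its alternatives).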

How the data were processed

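RNA-seq libraries were made from total RNA with a strand-specific SureSelect kit, per the labels' protocols. Bowtie2 2.1.0, TopHat2 2.0.8, Cufflinks 2.1.1 and mm9 are named in the submitters' processing notes. The authors deposited FPKM values, 1 table for each population. The annotation, filters, use of strand and treatment of reads that fit several genes are not given in the sources used here. Beside the columns used, the CD93-positive file held 6 that repeated them and were left out, and 12 samples of other populations were not analysed here. The deposited FPKM values hold no counts, so depth is unknown and no count test was run.

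Tested were the genes that reached 1 FPKM in 3 or more libraries of their table. The test was limma 3.58.1 in R 4.3.3 (lmFit, eBayes with trend) on log2(FPKM + 1), two-sided, with no covariate, and p-values were adjusted by Benjamini-Hochberg over all tested genes of the table, with a threshold of 0.05. The script was tested on simulated data. Members, lists, motifs and tests were chosen with earlier results of these data known. Values per library are given for the ring subunits, for the called member with the largest change and the member with the smallest change of each other role in CD93-negative cells, and for members there that overlapped or were not called. Of each wider list, the 4 largest called increases and 2 largest called decreases in CD93-negative cells with the authors' scaling were to be named, and no gene was a called decrease. A gene that met this rule is not reported here. Other genes were named after their values were seen. Promoter sequences are RefSeq's, from another build than the authors' files, and were matched by gene symbol. Gmnn, Mcm4, Gins1, Gins2, Gins4, Prim2, Pole, Rfc2 and Ccne2 were not matched. Results were recomputed with a pseudocount of 0.1 or 5, without the filter or with one of 5 FPKM, with upper quartile rescaling, quantile normalization, no trend, weights for sample quality or the replicate number as a block, with each library left out, and with sex as a covariate in CD93-positive cells.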

Additional observations from a re-analysis of the deposited data

Results flagged for a closer look

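E2f2 differed between DKO and control libraries in opposite directions in the 2 populations. All 3 DKO libraries lay above the 3 controls in CD93-negative cells, with a log2 change of 0.397, and all 3 lay below them in CD93-positive cells, with a log2 change of -0.877. After rescaling to a common upper quartile the changes were 0.184 and -0.633, again without overlap of the groups. Of these 4 changes, the last one passed the test. The difference between the populations was not tested, because their tables were scaled separately. In CD93-positive cells E2f2 read 129, 118 and 121 FPKM in the controls versus 88.1, 81.2 and 40.8 in DKO. The 10 red cell genes summed to 40635, 34620 and 8698 FPKM there versus 9299, 9373 and 2314 in DKO. The part of red cell RNA in the E2f2 change was not tested. By Xist and Ddx3y all CD93-negative libraries were male, whereas CD93-positive control replicate 3 and all CD93-positive DKO libraries were female. A fit of the CD93-positive libraries with sex as a covariate is given above, but sex and red cell RNA cannot be told apart in it. The part of sex in the difference between the populations was not tested.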

How the results depend on the processing

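In CD93-negative cells 35 members were called, and 29 to 37 under every alternative, which is also the range with 1 library left out. Orc1, Cdc6 and Ccne2 failed the filter when a DKO library was left out. Pold1 turned to -0.21 under upper quartile rescaling and to -0.24 under quantile normalization. The members' median minus that of all tested genes was 0.75, and 0.86 and 0.56 with pseudocounts of 0.1 and 5 and 0.84 without the filter. All genes called in CD93-negative cells were 2351, but 4478 after rescaling, 4198 after quantile normalization, and 1539 and 1368 without DKO replicates 2 and 3 (1368 to 3247 with 1 library left out). In CD93-positive cells no member was called, but 15 were after rescaling, 12 after quantile normalization, 1 with sample weights, 8 after rescaling without DKO replicate 3 and 0 to 2 with 1 library left out. Tk1 there turned from -0.13 to 0.49 with sex and rescaling, a setting that called 7 members. That setting and rescaling without control replicates 1 and 2 were chosen after seeing the data. The members' median difference was 0.25, and 0.02 without the filter. All genes called in CD93-positive cells were 361, but 16 without the filter, 168 with a filter of 5 FPKM, 2331 after rescaling, 2230 after quantile normalization, 188 without trend, 783 with weights, 127 with sex, 570 with sex and rescaling, 1547 after rescaling without DKO replicate 3, and 163 after rescaling without control replicates 1 and 2. With 1 library left out they were 139 to 623, with 139 and 157 without control replicates 1 and 2 and 202 and 623 without DKO replicates 2 and 3. The cause of these shifts was not tested. The labels do not say whether replicate numbers pair the libraries. Same-numbered deviations from the group means correlated at 0.02, -0.11 and -0.09 in CD93-negative and 0.17, -0.11 and -0.14 in CD93-positive cells. With 3 libraries a group these values cannot settle whether a pairing exists. With the replicate block 37 and 0 members were called (all genes 2874 and 237), and with block and rescaling 35 and 5 (all genes 3689 and 898), in CD93-negative and CD93-positive cells. E2F letters stood in 37.5% of member promoters when the 250 bases before the start alone were searched. They then stood in 7.89% of all promoters and in 14.3% of those of genes tested in CD93-negative cells. With 3 libraries a group and no counts, small changes and genes near 1 FPKM are poorly resolved.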

Other observations

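Rrm2b and Tk2, of the wider list of nucleotide genes, were chosen after their values had been seen. After rescaling 4 of the 36 genes of that list fell in CD93-negative and 3 in CD93-positive cells, where 23.8% and 9.34% of all tested genes fell. With the authors' scaling all DKO libraries lay below all controls for 7.43% and 19.0% of all tested genes. Rrm2b, the ribonucleotide reductase subunit of resting and damaged cells, read 8.51, 10.5 and 9.98 FPKM in the controls versus 7.82, 9.07 and 7.22 in DKO in CD93-negative cells, with overlap (log2 change -0.24; limma, adjusted p = 0.262). In CD93-positive cells it read 24.5, 24.1 and 26.3 versus 16.9, 17.2 and 10.2 FPKM, without overlap (log2 change -0.76; limma, adjusted p = 0.391). After rescaling it fell by 0.44 on the log2 scale in CD93-negative cells (limma, adjusted p = 0.00979, and 0.00979 to 0.653 over its alternatives) and by 0.52 in CD93-positive cells (limma, adjusted p = 0.00886, and 0.00813 to 1.0). Tk2, the thymidine kinase of mitochondria, read 25.9, 36.2 and 32.6 versus 22.5, 24.9 and 24.5 FPKM in CD93-negative cells. In CD93-positive cells it read 23.2, 23.9 and 26.4 versus 18.3, 17.6 and 10.3 FPKM, so every DKO library lay below every control in each population. Neither change passed with the authors' scaling (limma, adjusted p = 0.0860 and 0.476). Its rescaled log2 changes were -0.59 in CD93-negative cells (limma, adjusted p = 0.000312, and 0.000279 to 0.268 over its alternatives) and -0.44 in CD93-positive cells (limma, adjusted p = 0.0121, and 0.0119 to 1.0).

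After rescaling 13 of 28 further G1 and S phase regulators rose in CD93-negative cells and 5 fell, where 17.1% of tested genes rose and 23.8% fell. Those named here were chosen after their values had been seen, and Cdkn2c, an inhibitor of Cdk4 and Cdk6, was among those that rose (rescaled log2 change 1.01). Cdkn1b, the inhibitor p27, had log2 changes of -0.10 and -0.80 in CD93-negative and CD93-positive cells with the authors' scaling and passed in neither (limma, adjusted p = 0.662 and 0.411). After rescaling it fell by 0.32 and 0.56 on the log2 scale (limma, adjusted p = 0.00640 and 0.00640, and 0.00614 to 0.978 and 0.00549 to 1.0 over the alternatives). The retinoblastoma family genes Rb1 and Rbl2 fell after rescaling in CD93-negative cells, by 0.27 and 0.25 on the log2 scale (limma, adjusted p = 0.00737 and 0.00741, and 0.00737 to 0.941 and 0.00741 to 0.977 over the alternatives). In CD93-positive cells their rescaled log2 changes were -0.22 and -0.13, and neither passed (limma, adjusted p = 0.105 and 0.408, and 0.105 to 1.0 and 0.396 to 1.0 over the alternatives). Rbl1, of the same family, rose in CD93-negative cells (log2 change 0.52 and 0.31 rescaled; limma, adjusted p = 0.0269 and 0.0153, and 0.00682 to 0.0988 over its alternatives) and had a rescaled change of 0.06 in CD93-positive cells (limma, adjusted p = 0.794, and 0.494 to 1.0 over its alternatives).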
